A study of Mus musculus with 30 samples.

Results

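The transcription factor genes *Etv5*, *Bcl6b*, *Lhx1*, *T*, *Pou3f1* and *Mycn* are examined here, 6 of 13904 genes with an RNA-seq value. They were taken as listed factors known to be induced by GDNF in spermatogonial stem cells (SSCs), and were then divided by whether their RNA-seq level was over 2-fold higher in one of the lines compared. The factors were thus chosen by the difference in RNA-seq level between the lines as well as by name, and that difference is given below as a description with no test. All 6 factors were listed in the RNA-seq table, and 5 of them (all but *T*) were among the 5806 transcripts with a half-life.

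SSC lines are cultures of male germline stem cells. The lines had been derived from mouse testes at postnatal day 7 and were grown on embryonic fibroblast feeders in medium with GDNF, FGF2, EGF and LIF. RNA-seq was performed on 1 library of line 4, with genotype Nanos2TAG/+ and, by its label, RNA extracted in QIAzol, and on 1 library of line 5, with genotype Nanos2TAG/TAG and, by its label, RNA extracted in Trizol. SLAM-seq, in which metabolically labeled RNA is followed through a chase to obtain mRNA half-lives, was performed on the same lines with 12 libraries each (6 chase times from 0 to 1440 min), all extracted in Trizol.

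Both lines carry the tagged allele, which places an epitope and EGFP tag at the N terminus of NANOS2, an RNA-binding protein of SSCs. Each genotype is represented by 1 line, neither line lacks NANOS2, and GDNF was present for both. Genotype and line differ together and cannot be told apart. The same holds for the RNA-seq extraction reagent if the labels are right, whereas the methods name QIAzol alone. In its methods the study treats the RNA-seq libraries of the lines as biological replicates.

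GDNF is a growth factor that niche cells of the testis supply to SSCs. It binds the co-receptor GFRA1 and the receptor tyrosine kinase RET, which signal through SRC family kinases, PI3K-AKT and RAS-ERK, and these pathways raise the transcription of a group of factors that favor self-renewal over differentiation. ETV5, an ETS factor, BCL6B, a zinc finger repressor, and LHX1, a LIM homeodomain factor, are the classical members of this group. Brachyury, the T-box factor encoded by *T*, is known to act downstream of ETV5, the POU factor POU3F1 is needed for SSC survival in culture, and MYCN is a MYC family factor that drives growth and proliferation.

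In the Nanos2TAG/TAG library the levels of *Etv5*, *Bcl6b*, *Lhx1* and *T* were between 2.25-fold and 9.73-fold those in the Nanos2TAG/+ library, whereas *Pou3f1* (0.837-fold) and *Mycn* (1.10-fold) were close to their levels there. Over all genes, 13.5% were over 2-fold higher in the Nanos2TAG/TAG library and 9.59% over 2-fold lower. As this contrast was used to divide the factors, nothing is read from the count of 4 of 6. *Bcl6b* and *T* were also over 4-fold higher on the log2(FPKM + 0.1) scale, as were 4.94% of all genes. The member just inside the 2-fold limit was *Lhx1* (2.25-fold), and the highest of those outside was *Mycn* (1.10-fold). Levels are in FPKM, read fragments scaled to transcript length and to a read number set for each library. The intervals given are exact 95% intervals for counting error only, since no replicate library gives the spread between cultures.

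**Figure D1:**
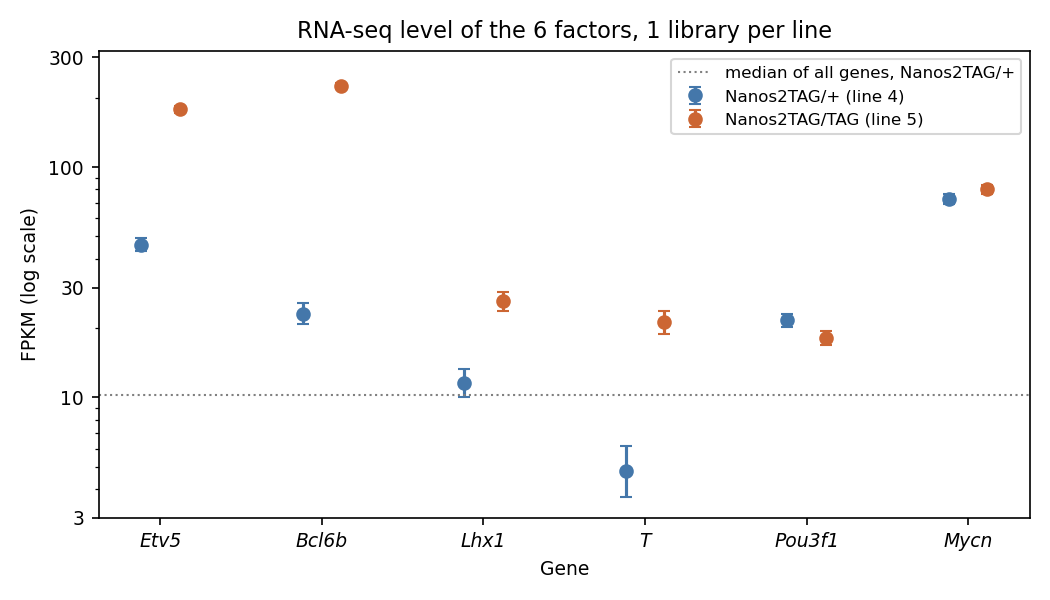
RNA-seq level of each factor in FPKM (log axis) in the Nanos2TAG/+ library (blue) and the Nanos2TAG/TAG library (orange), with 1 library per line. Bars are exact 95% intervals of the read counts, and the dotted line is the median of all genes in Nanos2TAG/+ (10.2 FPKM). *Etv5*, *Bcl6b*, *Lhx1* and *T* are higher in Nanos2TAG/TAG and *Pou3f1* is slightly lower, each with intervals that do not overlap, and those of *Mycn* overlap.

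*Etv5* (chr16:22381309-22439719, minus strand, GRCm38, 13 exons) encodes the ETS factor that is required in mice for the maintenance of SSCs. Its level was 46.0 FPKM (904 reads, interval 43.0 to 49.1) in Nanos2TAG/+ and 178 FPKM (3769 reads, interval 172 to 184) in Nanos2TAG/TAG. The Nanos2TAG/TAG library was the higher, 3.87-fold (interval 3.60 to 4.17), and the intervals did not overlap. Of the 1903 genes with a mean FPKM within 2-fold of that of *Etv5*, 0.368% had a larger difference on the log2(FPKM + 0.1) scale.

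A processed pseudogene of *Etv5*, *Gm4798* (chr10:71704290-71705988), holds 30.3% of the 31-base words of the *Etv5* transcripts, so that some reads could be assigned to either gene. *Gm4798* was listed with 18 reads (0.971 FPKM) in Nanos2TAG/+ and with 1350 reads (67.7 FPKM) in Nanos2TAG/TAG. Reads of both genes together numbered 922 and 5119, which is a 5.16-fold difference (interval 4.81 to 5.54), against 3.87-fold for *Etv5* alone. The direction of *Etv5* was the same either way, but its size depended on how these reads were divided.

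*Bcl6b* (chr11:70224128-70229798, minus strand, 9 exons) encodes a BTB-zinc finger repressor whose loss reduces SSC self-renewal. It had the largest difference among the 6 factors. Its level was 23.1 FPKM (370 reads, interval 20.8 to 25.6) in Nanos2TAG/+ and 225 FPKM (3872 reads, interval 218 to 232) in Nanos2TAG/TAG, a 9.73-fold difference (interval 8.74 to 10.8). Among 1750 genes of similar mean level, 0.114% had a larger difference.

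*Lhx1* (chr11:84518284-84525535, minus strand, 5 exons) encodes a LIM homeodomain factor whose transcription is induced by GDNF. The gene had 11.6 FPKM (196 reads, interval 10.03 to 13.3) in Nanos2TAG/+ and 26.1 FPKM (475 reads, interval 23.8 to 28.6) in Nanos2TAG/TAG. The 2.25-fold difference (interval 1.90 to 2.67) was the smallest of the 4, and its lower bound lay under 2-fold. Among 3912 genes of similar mean level, 4.78% had a larger difference.

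*T* (chr17:8434423-8442496, plus strand, 8 exons) encodes Brachyury, best known for its role in mesoderm. It was the least abundant of the 6 in Nanos2TAG/+, with 4.81 FPKM (61 reads, interval 3.68 to 6.18), below the median of all genes. In Nanos2TAG/TAG it had 21.2 FPKM (289 reads, interval 18.8 to 23.8), 4.40-fold the other library (interval 3.33 to 5.90). Of 3947 genes of similar mean level, 1.80% had a larger difference.

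*Pou3f1* (chr4:124656807-124660655, plus strand, 1 exon) is the only one of the 6 that was lower in the Nanos2TAG/TAG library. It had 21.6 FPKM (907 reads, interval 20.2 to 23.1) in Nanos2TAG/+ and 18.1 FPKM (817 reads, interval 16.9 to 19.4) in Nanos2TAG/TAG, a ratio of 0.837 (interval 0.761 to 0.921). This was a common size of difference, since 64.5% of 3879 genes of similar level had a larger value in the direction of Nanos2TAG/TAG. An annotated antisense gene, *Gm2164*, overlaps *Pou3f1* and was not listed in the table. Whether reads were counted by strand is not given in the sources used here, so reads from it could not be told apart from those of *Pou3f1*.

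*Mycn* (chr12:12936093-12941914, minus strand, 3 exons) was the most abundant of the 6 factors in Nanos2TAG/+. Its level was 73.0 FPKM (1561 reads, interval 69.5 to 76.8) in Nanos2TAG/+ and 80.1 FPKM (1842 reads, interval 76.5 to 83.8) in Nanos2TAG/TAG. The ratio of 1.10 (interval 1.02 to 1.17) was exceeded by 35.9% of 2501 genes of similar level. The intervals of the levels overlapped between the lines.

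The order of the factors by level per length thus differed between the libraries. In Nanos2TAG/+ the order was *Mycn*, *Etv5*, *Bcl6b*, *Pou3f1*, *Lhx1* and *T*, and *Bcl6b* and *Pou3f1* did not differ beyond their counting intervals. In Nanos2TAG/TAG it was *Bcl6b*, *Etv5*, *Mycn*, *Lhx1*, *T* and *Pou3f1*, where the intervals of *Lhx1* and *T* lay side by side without overlap and those of *T* and *Pou3f1* overlapped. *Bcl6b*, behind *Mycn* and *Etv5* in the former, was the most abundant in the latter.

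This order depends on the transcript length, because the deposited values used the mean length of all annotated transcripts of a gene, which is up to 2.48-fold shorter than its principal transcript. With the length of the principal transcript, the levels in Nanos2TAG/+ were 53.5 for *Mycn*, 21.6 for *Pou3f1*, 20.8 for *Etv5*, 10.1 for *Bcl6b*, 4.67 for *Lhx1* and 2.73 for *T*, in FPKM. In Nanos2TAG/TAG they were 98.0 for *Bcl6b*, 80.8 for *Etv5*, 58.7 for *Mycn*, 18.1 for *Pou3f1*, 12.03 for *T* and 10.5 for *Lhx1*. *Bcl6b*, *Etv5* and *Mycn* kept the upper places in Nanos2TAG/TAG on both scales, and *Pou3f1* moved up in both lines. On this scale the intervals of *Pou3f1* and *Etv5* overlapped in Nanos2TAG/+, as did those of *T* and *Lhx1* in Nanos2TAG/TAG.

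Some genes had nearly the same pair of levels as a factor. By distance over log2(FPKM + 0.1) in the 2 libraries, the nearest to *Etv5* were *Capg* (50.6 and 161 FPKM in Nanos2TAG/+ and Nanos2TAG/TAG), *Etv4* and *Fgd1* (60.3 and 156). The nearest to *Bcl6b* were *Gm2991* (41.4 and 259), *Etv4* (43.6 and 204) and *Gm10335* (19.4 and 114), although none of them was closer than 0.86 on this scale. *Etv4*, a relative of *Etv5* in the list of family members, was the only gene among the nearest 3 of more than 1 factor. Those near *T* included *Ccdc22* and *Itpkb*, for *Lhx1* they were *Lhfpl2*, *Rpl32l* and *Myl9*, for *Pou3f1* they were *Tmem41b*, *Rec114* and *Ranbp17*, and for *Mycn* they were *Polr3d*, *Tamm41* and *Aff3*. With 2 values per gene this likeness is a description only.

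The libraries had been scaled to 10908790 reads (Nanos2TAG/+) and 11738620 reads (Nanos2TAG/TAG), whereas the reads recovered numbered 10931439 and 11627842. For Nanos2TAG/+ the recovered reads exceed the number used for scaling, which is thus not a plain read total. The median difference of all genes, which depends on this scaling, was 0.0089 on the log2(FPKM + 0.1) scale. Of the 10 marker genes of undifferentiated spermatogonia, 9 were listed in both libraries, with *Dazl* not listed in the RNA-seq table. Without *Etv5* the 8 others summed to 627 and 748 FPKM, with 5 lower in Nanos2TAG/TAG and a median difference of -0.10 (log2). Of the 14 markers of fibroblast feeders, 13 were listed, with summed levels of 430 FPKM in Nanos2TAG/+ and 579 FPKM in Nanos2TAG/TAG, and 10 were higher and 3 lower in the latter (median 0.45, log2). *Sparc*, *Dcn* and *Pdgfrb* were over 2-fold higher, *Fn1* had 254 and 280 FPKM, and *Loxl2* (0.737-fold), *Thbs1* (0.837-fold) and *Col3a1* (0.956-fold) were lower. Sertoli cell markers summed to 5.89 and 27.1 FPKM (4 of 6 listed, of which *Wt1* had 2.51 and 19.6, and *Amh* was not listed), and of the macrophage markers *Cd68* (2.80 and 10.2 FPKM) alone was listed. Of the Leydig and peritubular markers, *Star* alone was listed (4.62 and 1.20 FPKM). The feeder, Sertoli and macrophage sums were higher in the same library as *Etv5*, *Bcl6b*, *Lhx1* and *T*, and their part in the difference was not tested. In such cultures fewer cells of a type and less RNA per cell cannot be told apart.

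To see where the factors stood within their pathway, lists of related genes were examined on the same scale. Each count past 2-fold stands beside the shares of all genes, 13.5% higher in Nanos2TAG/TAG and 9.59% lower. The median difference of the 6 factors was 1.56, and that of all genes was 0.0089. As the factors were chosen by this same difference, their median is a description only. The lists were also chosen with earlier results of these data known, so their counts and medians are descriptions too. The receptors were higher in Nanos2TAG/TAG together with the factors: *Ret* had 73.2 and 181 FPKM (2.47-fold), and its co-receptor *Gfra1* had 56.2 and 111 FPKM (1.97-fold). Of 5 measured genes of the receptor and ligand list, 3 were over 2-fold higher and 0 lower (median 1.10). The others past 2-fold, *Gfra2* (0.657 and 2.16 FPKM) and the related ligand gene *Nrtn* (3.94 and 8.58 FPKM), had low levels, *Ncam1*, an alternative GDNF receptor, had 8.57 and 9.50 FPKM, and *Gdnf* was not listed.

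Among 15 other genes that respond to GDNF, 7 were over 2-fold higher in Nanos2TAG/TAG and 0 lower (median 0.62). *Etv4* had 43.6 and 204 FPKM (4.68-fold), *Cxcr4*, a chemokine receptor of SSCs, had 1.49 and 10.2 FPKM, and *Nefm* had 3.40 and 13.7 FPKM. The other genes past 2-fold were nearly absent from Nanos2TAG/+: *Tbx3* had 2 and 179 reads, *Eomes* had 8 and 188, *Gja1* had 8 and 108, and *Tspan8* had 2 and 25. *Eomes* and *Tbx3* encode T-box factors, as *T* does. Within 2-fold were *Egr4* (105 and 125 FPKM), the cell cycle gene *Ccnd2* (263 and 371), *Hes1* (66.4 and 97.6), *Dpysl2* (15.3 and 23.5), *Foxc2* (12.9 in both), *Mycl* (28.2 and 25.3), *Egr3* (5.75 and 4.51) and *Id4* (1.76 and 1.59). Thus *Pou3f1* and *Mycn* were not alone among GDNF response genes in having similar levels in both lines.

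ERK signaling induces its own inhibitors, whose transcripts are commonly read as a measure of pathway output. Of 11 such feedback genes, 4 were over 2-fold higher in Nanos2TAG/TAG and 0 lower (median 0.37). The ERK phosphatase gene *Dusp6* had 14.2 and 83.3 FPKM (5.87-fold), and the sprouty genes *Spry4* and *Spry1* had 3.68 and 14.7, and 6.89 and 17.9 FPKM. *Spred3* had 13 and 86 reads. The rest of the list lay within 2-fold, from *Spry2* (7.03 and 6.04 FPKM) and *Dusp5* (44.3 and 38.5) to *Spred2* (25.2 and 41.8), with *Il17rd* (30.6 and 31.6), *Dusp4* (1.44 and 1.87), *Dusp7* (55.5 and 72.0) and *Spred1* (8.58 and 11.1) between them. The immediate early genes, a more transient response to growth factors, had 2 of 13 over 2-fold higher and a median of 0.26. As 13.5% of all genes were over 2-fold higher, nothing is read from that count.

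**Figure D2:**
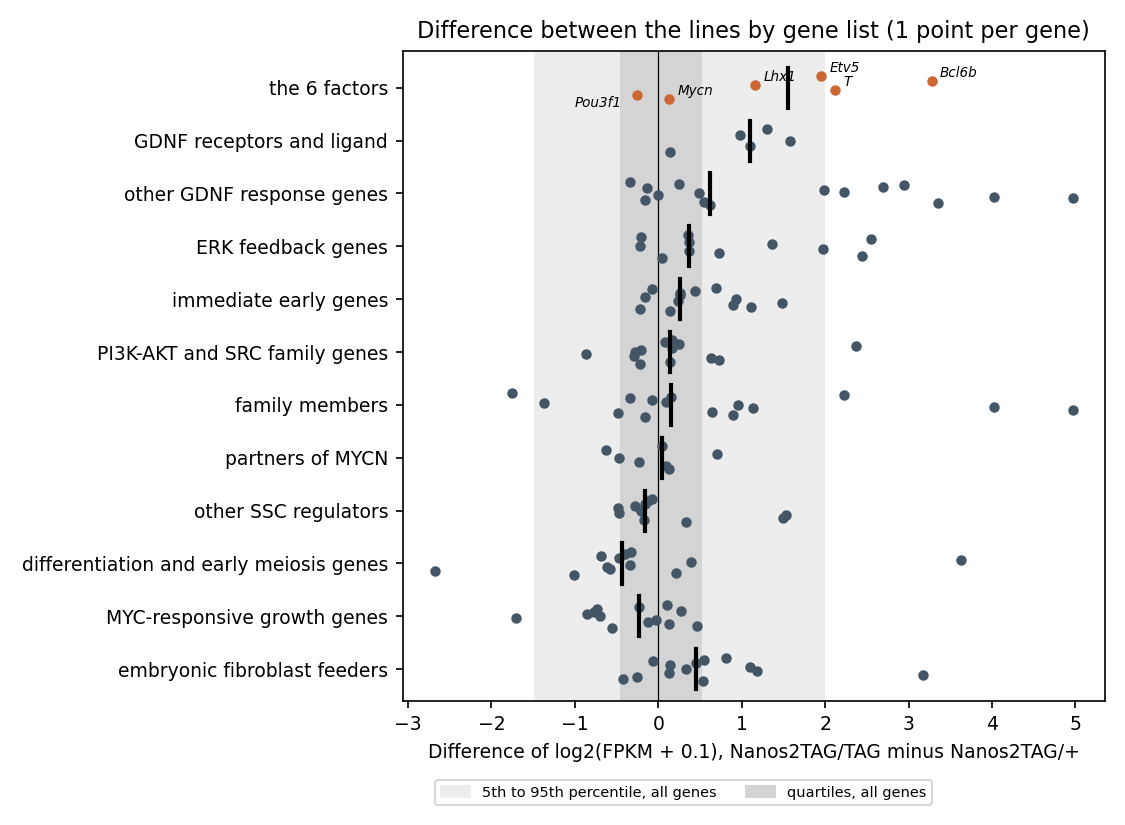
Difference of log2(FPKM + 0.1) between the Nanos2TAG/TAG and Nanos2TAG/+ libraries for the 6 factors (orange, named) and for lists of related genes (1 point per measured gene, black bars are list medians). Dark and light gray bands are the quartiles and the 5th to 95th percentiles of all 13904 genes. The medians are 1.56 for the factors, which were chosen by this difference, 1.10 for GDNF receptors and ligand, 0.62 for other GDNF response genes and -0.16 for other SSC regulators. The lists were chosen with earlier results of these data known.

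Relatives of the 6 factors gave a divided picture. Of 15 measured family members, 4 were over 2-fold higher and 2 lower (median 0.15), where 13.5% and 9.59% of all genes were. Among the 4, *Etv4*, *Eomes* and *Tbx3* were already counted among the GDNF response genes. The 2 lower genes, *Etv1* (25 and 6 reads) and *Lhx4* (32 and 11 reads), had few reads. The PEA3 group genes *Etv4* and *Etv1* differed in direction, with *Etv1* at 0.948 and 0.211 FPKM, and *Etv6* had 65.8 and 73.2. *Bcl6*, the closest relative of *Bcl6b*, had 25.05 and 19.8 FPKM, that is, without the 9.73-fold difference of *Bcl6b*. Of the LIM homeobox genes, *Lhx2* had 30.3 and 32.5 FPKM, *Lmx1b* had 0.782 and 1.61 and *Lhx4* had 0.911 and 0.291, while the T-box gene *Tbx2* had 5 and 17 reads. Among POU genes, *Pou2f1* had 37.2 and 58.0 FPKM and the pluripotency gene *Pou5f1* had 50.5 and 35.9. *Myc* had 2.22 and 4.22 FPKM, far below *Mycn* in both lines.

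*Max* and related genes, grouped here as partners of MYCN, each differed by less than 2-fold between the lines, as did *Mycn* itself. Not all of their products pair with MYCN directly. *Max*, whose product pairs with MYCN on DNA, had 84.6 and 87.1 FPKM, and none of 7 measured genes of this group differed by over 2-fold (median 0.042). Over all genes only 13.5% were over 2-fold higher and 9.59% over 2-fold lower, so nothing is read from that count. The others were *Mga* (56.8 and 62.0 FPKM), *Mlx* (25.9 and 27.6), *Mnt* (20.2 and 17.2), *Mxd4* (23.7 and 17.1), *Mxd3* (12.1 and 19.8) and *Mxd1* (9.11 and 5.86).
Of 13 genes that MYC factors are known to activate, 0 were over 2-fold higher and 1 was over 2-fold lower, and 9 of 13 were lower at all, as were 6876 of 13904 genes (median -0.23). The latter was *Ldha*, a glycolytic enzyme gene, with 553 and 169 FPKM, and *Npm1* had 628 and 378, *Cad* had 329 and 397, and *Cdk4* had 310 and 285. The nucleolar genes *Nop56* (328 and 181 FPKM, 0.551-fold), *Fbl* (58.2 and 34.2, 0.588-fold), *Nop58* (38.1 and 23.5, 0.616-fold) and *Polr1b*, an RNA polymerase I subunit gene (57.2 and 38.9, 0.680-fold), were lower in Nanos2TAG/TAG. The 4 genes of this list that were higher were *Srm* (1.38-fold), *Cad* (1.20-fold), *Shmt2* (1.09-fold) and *Odc1* (1.08-fold).

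Other SSC regulators were examined for contrast. Whether each of them is expressed without a need for GDNF was not tested here. Of 11 measured, 2 were over 2-fold higher, where 13.5% of all genes were, and the median was -0.16. These were *Utf1* (3.88 and 11.5 FPKM, 2.95-fold) and *Sall1* (4.06 and 11.6, 2.86-fold), both with a larger ratio than *Lhx1*. *Zbtb16*, which encodes PLZF, had 107 and 102 FPKM, *Sall4* had 214 and 192, *Foxo1* had 62.9 and 58.0, *Dmrt1* had 666 and 590 and *Lin28a* had 117 and 96.5. *Nanos2* itself, which is known to be maintained by GDNF signaling and is thus no GDNF-independent gene, had 27.5 and 23.8 FPKM, *Nanos3* had 90.8 and 65.4, *Bmi1* had 38.3 and 48.1, and *Pou5f1* is given above. The higher levels of *Etv5*, *Bcl6b*, *Lhx1* and *T* were thus not shared by *Dmrt1*, *Sall4*, *Lin28a* and *Zbtb16*, the most abundant of these regulators.

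The half-lives, by which the factors were not divided, separated the factors differently. As the factors were chosen with earlier results of these data known, the half-lives too are given as a description. The deposited tables hold 1 half-life per transcript and line, fitted over all libraries of that line, so that no error can be given. The median of all transcripts was 224 min in Nanos2TAG/+ (quartiles 162 and 289) and 226 min in Nanos2TAG/TAG (quartiles 159 and 300). The 5 factors listed spanned from among the shortest to among the longest of all transcripts.

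*Lhx1* had the shortest half-life of the 5, 86.7 min in Nanos2TAG/+, where only 3.74% of transcripts had a shorter one. In Nanos2TAG/TAG it was 167 min, above 27.9% of transcripts. The value in Nanos2TAG/TAG was 1.92-fold the other, and 10% of all transcripts had a half-life over 1.5-fold longer in Nanos2TAG/TAG, while 10.7% had one over 1.5-fold shorter.

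*Mycn*, whose mRNA is known to be short-lived, had 129 min in Nanos2TAG/+ and 175 min in Nanos2TAG/TAG, above 14.3% and 30.7% of transcripts. *Pou3f1* had 213 and 201 min, close to the medians, and was the only one with a shorter half-life in Nanos2TAG/TAG. *Etv5* had 236 and 259 min, a little above them. Over all transcripts, 54.1% had a longer half-life in Nanos2TAG/TAG, as did 4 of these 5.

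*Bcl6b* stood apart with 787 min in Nanos2TAG/+ and 1219 min in Nanos2TAG/TAG, above 99.1% and 99.3% of all transcripts. Half-lives over 700 min in Nanos2TAG/+ were listed for 1.38% of transcripts, and the value in Nanos2TAG/TAG lay near the length of the chase (1440 min). For transcripts of similar mean level the medians were 267 and 274 min. Among the marker lists, half-lives of this length were found for genes of the fibroblast feeders, namely *Sparc* (950 and 1440 min), *Col1a2* (786 and 899) and *Dcn* (784 and 871). The other feeder markers with a half-life were *Fn1* (678 and 745 min), *Col1a1* (562 and 597), *Col5a1* (289 and 588) and *Thbs1* (206 and 224), and the medians of these 7 were 678 and 745 min. The part of feeder RNA in the *Bcl6b* values was not tested. In comparison, the spermatogonial markers with a half-life had medians of 260 and 279 min. For *T* no half-life was listed.

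**Figure D3:**
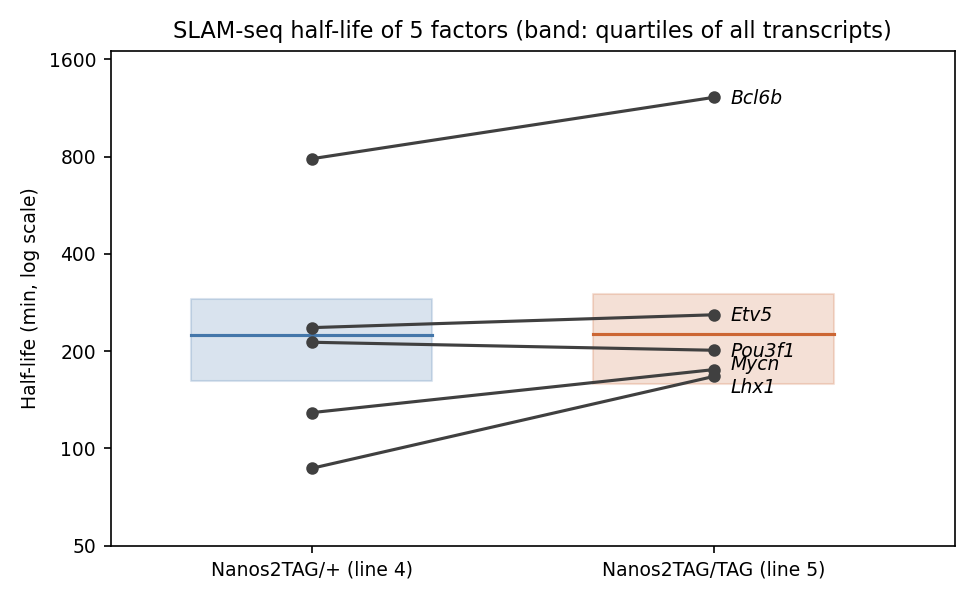
SLAM-seq half-life in min (log axis) of the 5 factors listed, in the Nanos2TAG/+ line (left) and the Nanos2TAG/TAG line (right), 1 deposited value per line with no error. Lines join the values of a gene, and boxes show the quartiles and median of all 5806 transcripts (medians 224 and 226 min). *Bcl6b* lies far above the boxes in both lines, and *Lhx1* and *Mycn* lie below the box in Nanos2TAG/+ and inside it in Nanos2TAG/TAG.

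In the absence of other changes, a longer half-life raises the level of a transcript in proportion, so the ratios of level and half-life were set side by side. For *Etv5*, a 3.87-fold level, without the reads of *Gm4798*, stood beside a 1.10-fold half-life, a quotient of 3.54. For *Bcl6b* they were 9.73-fold and 1.55-fold, and the quotient was 6.28. *Lhx1* was unlike these, since its 2.25-fold level stood beside a 1.92-fold half-life, and the quotient was 1.17. For *Pou3f1* (0.837 and 0.945) and *Mycn* (1.10 and 1.36) the quotients were 0.886 and 0.807. The level and the half-life were measured in separate libraries, and neither ratio has an error from replicates, so the quotients are descriptions.

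The other genes of the pathway with a half-life differed among themselves. *Dpysl2* and *Spred2* were like *Lhx1*, with quotients of 0.989 and 1.12. *Eomes*, with 8 reads in Nanos2TAG/+, had a 21.8-fold level and half-lives of 179 and 60.7 min. *Etv4* was like *Bcl6b*, with a 4.68-fold level and half-lives of 176 and 276 min (1.57-fold). *Ret* (259 and 243 min) and *Gfra1* (244 and 257 min) had nearly equal half-lives in both lines, as *Etv5* did. *Dusp6* had a 5.87-fold level and a shorter half-life in Nanos2TAG/TAG (129 and 93.4 min), and the half-lives of *Spry4* were 98.3 and 112 min. As a list, the 7 feedback genes with a half-life had medians of 129 and 155 min, below those of all transcripts.

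**Figure D4:**
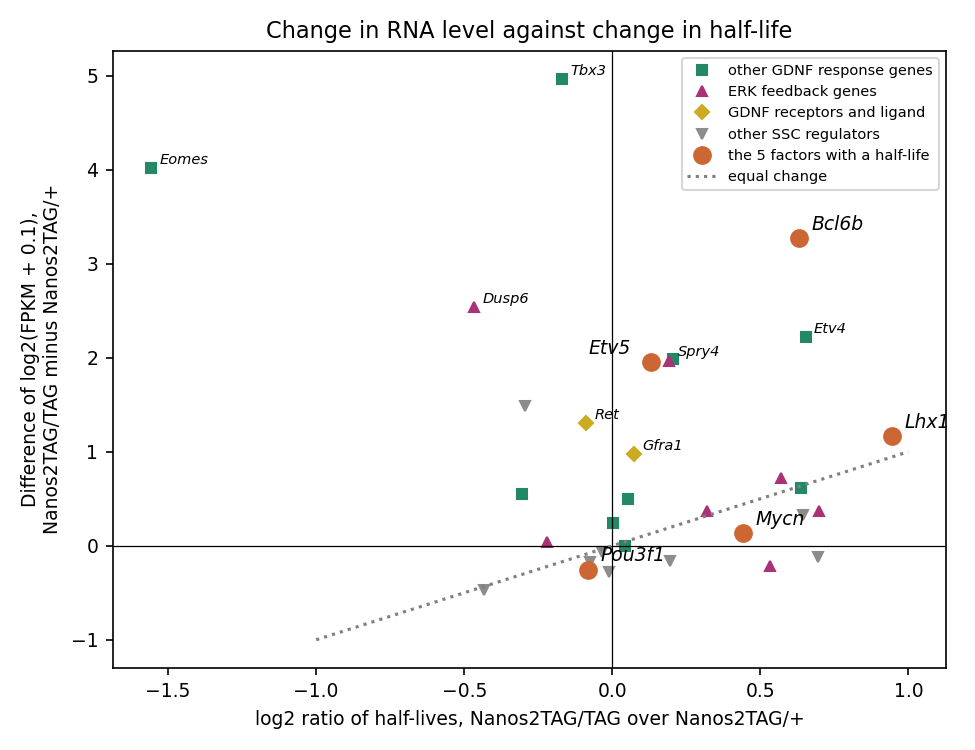
Difference of log2(FPKM + 0.1) between the lines against the log2 ratio of their half-lives, for the 5 factors with a half-life (large orange circles) and for genes of 4 related lists. The dotted line marks equal change of level and half-life. *Lhx1*, *Pou3f1* and *Mycn* lie near it, with quotients of 1.17, 0.886 and 0.807, and *Etv5* and *Bcl6b* lie above it, with 3.54 and 6.28.

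As NANOS2 binds mRNAs mostly in 3′ UTRs, the annotated 3′ UTR of each factor was searched on its sense strand for short elements. The consensus given for NANOS2 binding can be spelled AUNAAAU or AUNAAUU, in which N stands for G or U, and a match was found in *Mycn* alone, 900 bases after the stop codon in exon 3. It is shown with its surroundings up to the 3′ end of the transcript, with the match in capitals (chr12:12936100-12936106, minus strand, GRCm38).

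Mycn: aauaaauagcaAUUAAAUgaugcaa

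Such a match is common, since 32.3% of 1763 3′ UTRs of similar length held at least 1. For the others the shares of 3′ UTRs of similar length with a match were 56.3% (*Etv5*), 50.9% (*Bcl6b*), 40.4% (*Lhx1*), 24.8% (*T*) and 46.8% (*Pou3f1*). The letters are not in the windows of these 5, and nothing on binding is read from it.

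The element UGUANAUA is the known recognition sequence of PUMILIO proteins, which are partners of NANOS proteins in flies. It was present in 4 of the 6 factors, with 2 matches each in *Bcl6b* and *Mycn* and 1 each in *Etv5* and *Pou3f1*. These sites are shown because the factors with and without a higher level in Nanos2TAG/TAG both hold them, with 10 bases on either side and the match in capitals.

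Etv5: gggaagcagaUGUACAUAcuacauacau

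Bcl6b, nearer the stop codon: augguuuaucUGUAAAUAuaauuuauug

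Bcl6b, farther from the stop codon: gaacccaaaaUGUAGAUAauaaacuccc

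Pou3f1: gugggaaccaUGUAAAUAugugagauau

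Mycn, nearer the stop codon: ggaacacuugUGUAAAUAccauugauac

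Mycn, farther from the stop codon: uucuucaaaaUGUAUAUAuuuagugcug

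The matches are at chr16:22382395-22382402 (*Etv5*, exon 13), chr11:70225712-70225719 and chr11:70225266-70225273 (*Bcl6b*, exon 9), chr4:124660255-124660262 (*Pou3f1*) and chr12:12936604-12936611 and chr12:12936165-12936172 (*Mycn*, exon 3). In 3′ UTRs of similar length, 3.69% held as many as that of *Mycn* (913 bases), 9.85% as many as that of *Bcl6b* (1899 bases), 36.5% at least 1 as in *Etv5* (2161 bases) and 29.8% as in *Pou3f1* (1599 bases). *Lhx1* (1265 bases) and *T* (627 bases) had none, where 25.4% and 15.1% of similar 3′ UTRs held 1. *Bcl6b*, with the longest half-life, and *Mycn*, with one of the shortest, held the same number, and a link between the element and half-life was not tested.

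AU-rich elements are known to shorten the life of many growth factor-induced mRNAs. The nonamer UUAUUUAUU, which includes the shorter element AUUUA, was found in *Pou3f1* alone (chr4:124659644-124659652, plus strand), in 1 copy, as it was in 8.49% of 3′ UTRs of similar length.

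Pou3f1: uuuacgguuuUUAUUUAUUcguggagccu

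AUUUA occurred 6 times in *Pou3f1*, 5 times in *Etv5*, 2 times in *Bcl6b*, 1 time in *Mycn* and 0 times in *Lhx1* and *T*. At least 1 copy was found in 80.6% of 3′ UTRs similar in length to that of *Lhx1*, the factor with the shortest half-life of the 5. A link between these elements and half-life was not tested.

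Promoter windows from RefSeq (GRCm38.p6, 250 bases before to 50 after a gene's start) matched 4 of the 6 factors, with 5 windows in all, and *Bcl6b* and *Pou3f1* were not matched. They are shown as a description of these sequences, and their part in the levels was not tested. Only the bases before the first annotated transcript base are printed, and capitals mark CCAAT, the box bound by NF-Y, on either strand (ATTGG on the reverse), and AGGTGT, part of the T-box element.

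Etv5: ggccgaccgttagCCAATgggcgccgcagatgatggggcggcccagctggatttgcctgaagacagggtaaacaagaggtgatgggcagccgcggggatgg

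Lhx1: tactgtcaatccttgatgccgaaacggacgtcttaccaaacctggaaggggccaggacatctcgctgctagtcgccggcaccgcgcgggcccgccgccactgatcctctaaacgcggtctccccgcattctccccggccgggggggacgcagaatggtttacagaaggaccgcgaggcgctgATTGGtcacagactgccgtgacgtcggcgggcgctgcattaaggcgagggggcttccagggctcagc

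T: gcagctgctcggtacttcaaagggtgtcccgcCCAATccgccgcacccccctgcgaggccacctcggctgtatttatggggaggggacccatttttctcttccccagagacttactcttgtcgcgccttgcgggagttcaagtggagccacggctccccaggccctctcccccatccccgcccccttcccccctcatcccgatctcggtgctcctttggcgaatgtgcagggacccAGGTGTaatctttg

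Mycn: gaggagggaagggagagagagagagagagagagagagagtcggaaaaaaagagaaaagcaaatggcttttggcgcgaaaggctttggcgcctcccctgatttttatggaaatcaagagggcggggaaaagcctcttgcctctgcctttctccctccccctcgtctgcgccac

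These stretches are chr16:22439720-22439820 (minus strand), chr11:84525536-84525784 (minus strand), chr17:8434173-8434422 (plus strand) and chr12:12941915-12942086 (minus strand), respectively. CCAAT was present in the windows of *Etv5*, *Lhx1* and *T* and not in that of *Mycn*, and 37.4% of 32851 promoter windows of the genome held it. As *Mycn* was the only factor without a higher level to have a window, nothing is read from this. The ETS core GGAAGT was found in the other *Etv5* window (23.8% of all windows), and AGGTGT in *T*, starting 14 bases before the start (13.7%). CACGTG, the E-box bound by MYC factors (7.15%), TGACGTCA, bound by CREB (1.79%), TGANTCA, bound by AP-1 (7.81%), and TATAAA (13.6%) were in none of the 5 windows. All were searched on both strands, and a match is a description of the sequence, not a site.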

How the data were processed

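FPKM values of 1 RNA-seq library per line had been computed by the authors from single-end reads after ribosomal RNA depletion, and the submitters' processing notes name kallisto and DESeq2. Half-lives in min had been computed by the authors with SlamDunk conversion rates and a first-order decay fit, with technical replicates collapsed, and were deposited as 1 value per transcript and line. The filter behind the 5806 transcripts is not given in the sources used here. Table columns were assigned to lines by their names. The labels describe feeder depletion before extraction, and the methods sorted cells.

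Reads were recovered from FPKM with the mean transcript length of GENCODE M21, which gave whole numbers (within 0.05 read) for 100% of 13867 genes, and 37 genes had no such length. Ratios have exact (Clopper-Pearson) 95% intervals. Log2 differences used a pseudocount of 0.1. The 6 factors and all lists were chosen with earlier results of these data known. Named were all measured genes of the receptor, response, feedback, family, partner and other SSC regulator lists, up to 4 abundant genes of the others, and the 3 genes nearest each factor, of which 1 item is not reported here. *Gm4798*, *Pdgfrb*, *Dcn*, *Col1a2*, *Col3a1*, *Col5a1*, *Loxl2*, *Nop56*, *Nop58*, *Fbl*, *Polr1b*, *Srm*, *Shmt2* and *Odc1* were named after their values were seen. No test was made, since no group has a replicate value. Scripts in Python 3.11.15 (numpy 2.4.6, pandas 2.3.3, scipy 1.17.1) were tested on simulated data. CRAC libraries were not analysed here.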

Additional observations from a re-analysis of the deposited data

How the results depend on the processing

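Each factor kept the direction of its FPKM difference with a pseudocount of 1 and when libraries were scaled by total recovered reads, by the upper quartile or by summed FPKM, which moved the median of all genes to at most 0.087 (log2). Of 4 factors over 2-fold higher, 2 (*Bcl6b* and *T*) were over 4-fold, where 4.94% of all genes were. With the reads of *Gm4798* added, *Etv5* was past 4-fold as well (5.16-fold). The receptor and ligand median was 0.95 with a pseudocount of 1 (1.10 with 0.1), and the family median was 0.40 with genes of a mean FPKM of at least 1 (0.15 with all). The addition of *Gm4798* reads to *Etv5* (2.37 against 1.95, log2), the principal transcript lengths and the other scalings of the count were chosen after seeing the data. No paired analysis was possible because RNA-seq has 1 library per line and the half-lives are 1 pooled value per line, and for the same reason no replicate could be left out. A factor with few reads, such as *T*, has an imprecise ratio, and the half-lives come without depth.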

Other observations

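Genes of spermatogonial differentiation and early meiosis, which mark the exit from self-renewal, had a median difference of -0.44 (log2) between the Nanos2TAG/TAG and Nanos2TAG/+ libraries, with 9 of 12 measured genes lower in Nanos2TAG/TAG, as were 6876 of all 13904 genes. Past 2-fold were *Rec8*, a meiotic cohesin gene (267 and 133 FPKM in Nanos2TAG/+ and Nanos2TAG/TAG), *Sycp3*, a synaptonemal complex gene (54 and 8 reads), and in the other direction *Neurog3*, a gene of early progenitors (7 and 108 reads). *Sohlh2* had 173 and 125 FPKM and *Dnmt3a* had 66.7 and 43.7 FPKM. Of 13 PI3K-AKT and SRC family genes, which relay the GDNF signal, 1 was over 2-fold higher in Nanos2TAG/TAG (*Pik3r1*, 0.979 and 5.46 FPKM). Over all genes 13.5% were over 2-fold higher, and the median of this list was 0.15. *Pik3r2* had 165 and 184 FPKM, *Akt2* had 169 and 139, and *Akt1* had 122 and 106. *Sycp3*, *Neurog3* and *Pik3r1* were named after their values were seen.

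The T-box relatives *Tbx3* and *Eomes* had 2 and 8 reads in the Nanos2TAG/+ RNA-seq library, but half-lives were listed for them in that line (144 and 179 min), whereas *T*, with 61 reads, had none. Of 5147 transcripts with both a half-life and recovered reads, 36 (0.699%) had at most 10 reads in the Nanos2TAG/+ library and 9 (0.175%) in the Nanos2TAG/TAG library.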
